A study of Mus musculus with 18 samples.

Results

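The R-spondins, their Lgr receptors and the 2 membrane ubiquitin ligases that they act on were followed across 6 groups of sorted mouse dermal cells. The 9 genes were Rspo1, Rspo2, Rspo3, Rspo4, Lgr4, Lgr5, Lgr6, Znrf3 and Rnf43, of 18193 genes measured on the arrays. These 9 were chosen by name, with earlier results of these data known. They had 15 probe sets that carry 1 gene symbol in the platform annotation, and each gene is read from the brightest of its probe sets on average. All levels below are log2 expression values after RMA, a summary of the probes of a probe set, and all differences are differences of log2 values.

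R-spondins are secreted proteins that strengthen Wnt signalling. ZNRF3 and RNF43 mark Frizzled receptors and their LRP co-receptors for removal from the cell surface. An R-spondin that binds an LGR receptor and one of these ligases at once clears the ligase from the membrane, so that more Wnt receptor stays there. In skin, dermal cells near hair follicles are known to make R-spondins, and Lgr5 and Lgr6 are best known as genes of epithelial stem cells of the follicle. Znrf3, Rnf43 and Axin2 are themselves induced by Wnt signalling in many tissues.

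The samples were 18 Affymetrix arrays, 3 in each group, and no group was treated. ENF cells (red, not green) and EPF cells (green, not red) were sorted from dorsal dermis of En1Cre; R26mTmG mice, with postnatal day 56 in the labels. Dorsal and Ventral cells were green cells from the dorsal and ventral dermis of the same line at postnatal day 30. Cranial and Oral cells were green cells from cranial dermis and oral mucosa of Wnt1Cre; R26mTmG mice at postnatal day 30. All groups carried the R26mTmG reporter, in which Cre switches a cell and its descendants from red to green for good, so green marks descent from cells with En1 or Wnt1 promoter activity and not present activity. En1 itself was between 3.25 and 4.16 in all 18 arrays. The sort of every group excluded cells with CD31, CD45, Tie2, EpCAM, DAPI or a marker spelled Tie119 in the labels. The protocol text gives day 30 for back skin, so it is not clear which age holds for ENF and EPF. Nothing in the labels says that the 3 arrays of a group came from separate mice, and p-values measure only the spread between these arrays, which may be technical. With 3 arrays a group, their number limits the precision.

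The EPF and ENF arrays stood apart from the 12 site arrays (Dorsal, Ventral, Cranial and Oral). Correlations across genes were 0.872 to 0.926 between the 2 sets, against 0.962 to 0.988 within EPF and ENF and 0.946 to 0.998 within the sites. Dorsal had the widest spread, with a median SD per gene of 0.281, and Cranial the narrowest, with 0.104. A group mean at or below 4.10, the highest lower quartile of any array, was taken as near background, and a difference from such a mean is a lower bound. Array medians were 5.19 to 5.32. The mean of 8 fibroblast markers (collagens, Pdgfra, Dcn and others) was 13.16 to 13.54 in the EPF and ENF arrays and 11.03 to 12.70 in the site arrays. Single markers varied more: Lum, a collagen-binding proteoglycan, was at 13.58 to 13.94 in the EPF and ENF arrays but at 5.65 in Ventral 1, 8.82 in Dorsal 1 and 8.68 in Dorsal 2. In such sorted bulk samples, fewer cells that express a gene and less RNA per cell cannot be told apart.

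Upstream sequences are shown for Lgr4 and Lgr6, because the levels of these receptors ran in opposite directions across the body sites. They are the bases before the annotated gene start, from RefSeq on build GRCm38.p6, written 5′ to 3′ on the strand of the gene. The Lgr4 stretch is chr2:109917397-109917646 on the plus strand and the Lgr6 stretch is chr1:135105375-135105526 on the minus strand. Capitals mark CCAAT, an element of many promoters, which was looked for on both strands (CCAAT and ATTGG) after the Lgr4 sequence had been seen.
Lgr4: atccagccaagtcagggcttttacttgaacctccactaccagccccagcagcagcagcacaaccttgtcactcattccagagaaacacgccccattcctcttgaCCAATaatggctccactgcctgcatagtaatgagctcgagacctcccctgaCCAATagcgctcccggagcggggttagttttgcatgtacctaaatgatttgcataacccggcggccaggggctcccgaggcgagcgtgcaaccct
Lgr6: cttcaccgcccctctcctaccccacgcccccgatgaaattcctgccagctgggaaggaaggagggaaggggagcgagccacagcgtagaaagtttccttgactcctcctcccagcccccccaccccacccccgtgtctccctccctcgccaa
The Lgr4 stretch holds 2 CCAAT elements and the Lgr6 stretch holds none. Of 32851 mouse promoters, 33.8% have at least 1 CCAAT in the 250 bases before the start and 10.1% have 2 or more. The core sites of TCF and LEF factors, the DNA-binding partners of beta-catenin, were searched as CTTTGAT and CTTTGTT on both strands; these overlap with no CCAAT. Such a site is in 8.06% of the 32851 promoters and in 0 of the 5 members with a promoter entry (Rspo1, Rspo4, Lgr4, Lgr6 and Rnf43), which says only that these letters are not in those 250 bases. The G and C content was 55.6% for Lgr4 and 65.2% for Lgr6, against a median of 52.4%.

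Among the body sites, 5 of the 9 genes differed: Rspo2, Lgr4, Lgr5, Lgr6 and Znrf3 passed limma's moderated F test over the 4 groups at an adjusted p under 0.05, where 21.1% of all genes passed. Oral cells combined high Rspo2 and Lgr4 with low Lgr5. Cranial cells combined high Lgr5 and Znrf3 with an intermediate Rspo2. Dorsal and Ventral cells had high Lgr5, low Rspo2 and low Znrf3, and Ventral cells also had more Lgr6 than Cranial or Oral cells. Adjusted p in the F test ran from 0.000138 for Rspo2 to 0.0250 for Lgr6 among the 5 genes, and was 0.0929 for Rspo1, 0.107 for Rnf43, 0.109 for Rspo3 and 0.926 for Rspo4. Without any single Oral or Cranial array, 4 of the 9 passed. Cranial and Oral came from Wnt1Cre mice, and Dorsal and Ventral from En1Cre mice. Between these pairs of groups, body site, mouse line and traced lineage cannot be told apart.

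**Figure D1:**
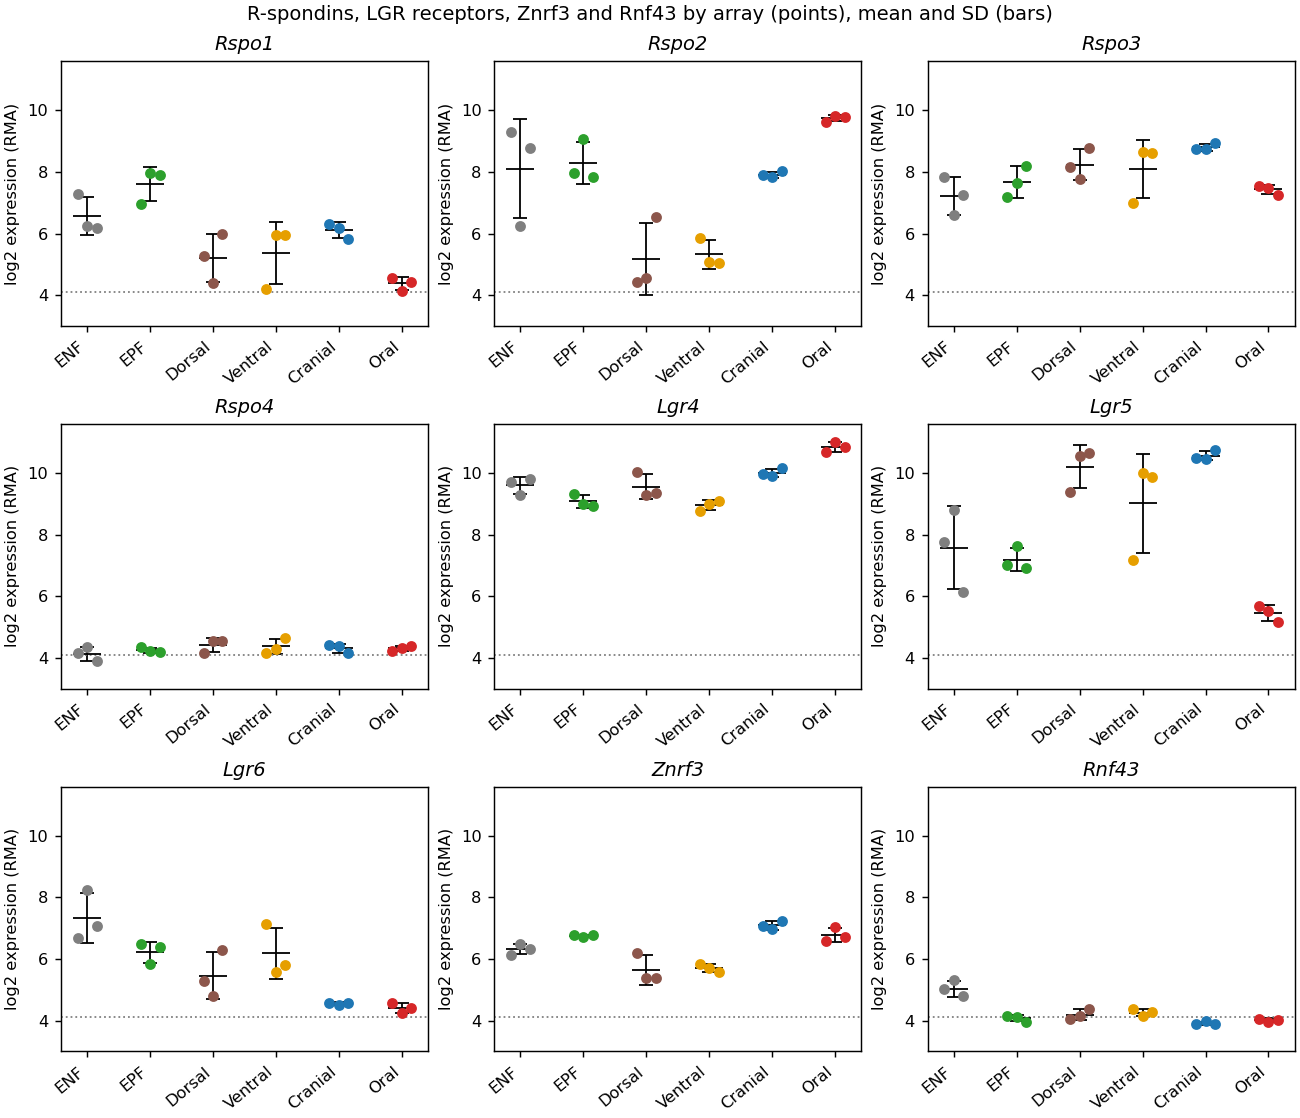
Log2 expression of the 9 genes in each of the 18 arrays (points), with group mean and SD (bars), 3 arrays per group. The dotted line at 4.10 is the level taken as near background; levels of different genes come from different probes and are not compared. Lgr5 lies at 5.15 to 5.68 in Oral and at 10.45 to 10.74 in Cranial.

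The ligand Rspo2, which is needed for limb and craniofacial development, differed the most among the ligands. Its levels in Oral 1 to 3 were 9.63, 9.81 and 9.80, in Cranial 7.89, 7.82 and 8.02, in Dorsal 4.42, 4.57 and 6.53, and in Ventral 5.87, 5.07 and 5.05. All Oral arrays lay above all Cranial arrays, and these above all Dorsal and Ventral arrays, which overlapped. Rspo2 was 23.8-fold higher in Oral than in Dorsal (4.57 ± 0.45, SE, adjusted p = 0.000110 in limma) and 21.3-fold higher than in Ventral (4.41 ± 0.45, adjusted p = 0.000139 in limma). Cranial exceeded Dorsal 6.66-fold (2.74 ± 0.45, adjusted p = 0.00252 in limma) and Ventral 5.97-fold (2.58 ± 0.45, adjusted p = 0.00349 in limma). Dorsal 3 was the highest trunk array, and without it the difference from Dorsal was 5.25 for Oral and 3.41 for Cranial. Between Oral and Cranial the difference was 1.84 ± 0.45, which did not pass (adjusted p = 0.103 in limma) in the fit over the 12 arrays. In a fit of the 6 Oral and Cranial arrays alone, whose spread is narrow, adjusted p was 1.41e-08.

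In the sorted back skin cells the mean of Rspo2 was 8.11 ± 1.62 in ENF and 8.28 ± 0.68 in EPF (SD, n = 3), near the 7.91 ± 0.10 of Cranial. ENF arrays had 9.30, 6.26 and 8.78 and EPF arrays 7.95, 9.06 and 7.83. The ENF arrays spread over more than 3 log2 units and enclosed those of EPF (difference EPF minus ENF 0.17, 95% interval -1.56 to 1.90; -0.76 without ENF 2 and -0.22 without EPF 2). From high to low, the group means ran Oral, EPF, ENF, Cranial, Ventral and Dorsal, and of the neighbours in that order the arrays of Oral and EPF, and of Cranial and Ventral, did not overlap.

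Rspo1, known for its part in ovary development and as a growth factor of epithelia, had a lower level at Oral sites than elsewhere, but this did not pass the test. The levels were 4.57, 4.14 and 4.43 in Oral and 6.32, 6.19 and 5.83 in Cranial, which did not overlap. The difference was -1.73 ± 0.47 (adjusted p = 0.156 in limma; 5.85e-07 in a fit of these 6 arrays alone). Dorsal had 5.26, 4.40 and 5.98, and Ventral 4.21, 5.94 and 5.94, so both trunk groups reached down to the Oral level. ENF had 7.28, 6.24 and 6.18 and EPF 6.97, 7.97 and 7.89, the highest group mean of the 6 at 7.61 ± 0.56 (SD, n = 3).

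Rspo3, a ligand of vascular and placental development, was present in every group. Its levels were 8.73, 8.73 and 8.94 in Cranial, 8.17, 7.76 and 8.78 in Dorsal, 7.0, 8.66 and 8.61 in Ventral and 7.54, 7.47 and 7.26 in Oral. Oral lay below all Cranial and Dorsal arrays, while Ventral 1 fell below the Oral arrays. The difference Oral minus Cranial was -1.38 ± 0.39 (adjusted p = 0.190 in limma; 6.63e-07 in a fit of these 6 arrays alone). In back skin, ENF had 7.83, 6.59 and 7.26 and EPF 7.18, 7.64 and 8.19, which overlapped. Rspo4, the ligand of nail development, was dim in all 18 arrays, from 3.89 to 4.65, and its largest absolute difference in any of the 8 comparisons was the one between EPF and Dorsal, -0.16 ± 0.17.

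Lgr5, a receptor known from epithelial stem cells, showed the widest range of the 9 genes among the sites. It was at 9.40, 10.54 and 10.66 in Dorsal, 7.17, 10.01 and 9.88 in Ventral and 10.49, 10.45 and 10.74 in Cranial. In Oral it was at 5.68, 5.53 and 5.15, below every other array of the sites and close to the array medians. Lgr5 was 34.5-fold lower in Oral than in Cranial (-5.11 ± 0.63, adjusted p = 0.00177 in limma) and 26.9-fold lower than in Dorsal (-4.75 ± 0.63, adjusted p = 0.000609 in limma). It was 11.8-fold lower than in Ventral (-3.56 ± 0.63, adjusted p = 0.00366 in limma), and without Ventral 1 the difference was -4.49. Lgr5 was the single member called between Oral and Cranial, where 1.14% of all genes were called and 0.731% were called lower. The arrays of Oral and Cranial did not overlap for 5 of the 9 genes (Rspo1, Rspo2, Rspo3, Lgr4 and Lgr5), against 25.9% of all genes. Cranial and Dorsal did not differ beyond their spread (0.36, 95% interval -1.03 to 1.74; -0.04 without Dorsal 1).

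Ventral 1 was low in Lgr5 and also in fibroblast markers. The mean of the 8 fibroblast markers was 11.03 in Ventral 1, 12.10 in Ventral 2 and 12.09 in Ventral 3, and Pdgfra was 10.71, 11.94 and 11.96. The 3 Oral arrays had 11.67, 11.74 and 11.52 in the same mean, and the Cranial arrays 12.25, 12.22 and 12.56. Dorsal 1, Dorsal 2 and Dorsal 3, with Lgr5 at 9.40, 10.54 and 10.66, had fibroblast means of 11.77, 11.82 and 12.70. The part of these markers in the Lgr5 result was not tested.

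In the sorted back skin groups Lgr5 was intermediate, at 7.77, 8.81 and 6.15 in ENF and 7.01, 7.63 and 6.93 in EPF. These arrays overlapped, and the difference EPF minus ENF was -0.39 (95% interval -1.77 to 1.00), and 0.23 without ENF 2. The order of group means was Cranial, Dorsal, Ventral, ENF, EPF and Oral, and only EPF and Oral, of the neighbours, had arrays that did not overlap.

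Lgr4, the most widely expressed of the receptors, ran against Lgr5 at the oral site. Its levels were 10.69, 11.00 and 10.86 in Oral, 9.96, 9.89 and 10.16 in Cranial, 10.02, 9.30 and 9.36 in Dorsal and 8.78, 9.01 and 9.10 in Ventral. All Oral arrays were above all other arrays, and all Ventral arrays were below those of the other 3 sites. Lgr4 was 3.70-fold higher in Oral than in Ventral (1.89 ± 0.19, adjusted p = 0.000108 in limma) and 2.45-fold higher than in Dorsal (1.29 ± 0.19, adjusted p = 0.00104 in limma). Cranial exceeded Ventral 2.05-fold (1.04 ± 0.19, adjusted p = 0.00393 in limma). Oral minus Cranial was 0.85 ± 0.19, with an adjusted p of 0.0642 in limma, and 0.000134 in a fit of these 6 arrays alone. ENF had 9.71, 9.30 and 9.80 and EPF 9.31, 9.0 and 8.94, with 1 EPF array at the lower edge of ENF.

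Lgr6, a receptor known from epidermal and follicle progenitors, had its highest group mean in ENF (7.33 ± 0.80, SD, n = 3), and at the sites it was lower in Cranial and Oral than in Ventral. Its levels at the sites were 4.57, 4.50 and 4.58 in Cranial, 4.57, 4.23 and 4.42 in Oral, 5.27, 4.80 and 6.28 in Dorsal and 7.14, 5.59 and 5.81 in Ventral. All Dorsal and Ventral arrays lay above all Cranial and Oral arrays, and the latter were close to the background level. Lgr6 was 3.43-fold lower in Oral than in Ventral (-1.78 ± 0.41, adjusted p = 0.0146 in limma) and 3.10-fold lower in Cranial than in Ventral (-1.63 ± 0.41, adjusted p = 0.0202 in limma). The first call was lost without Oral 2 (adjusted p = 0.0622 in limma) and the second without any single Cranial array (0.0595 to 0.0644) or without Ventral 1 (-1.15, adjusted p = 0.0502 in limma). Against Dorsal, the differences of -1.05 in Oral and -0.91 in Cranial did not pass (adjusted p = 0.109 and 0.151 in limma).

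**Figure D2:**
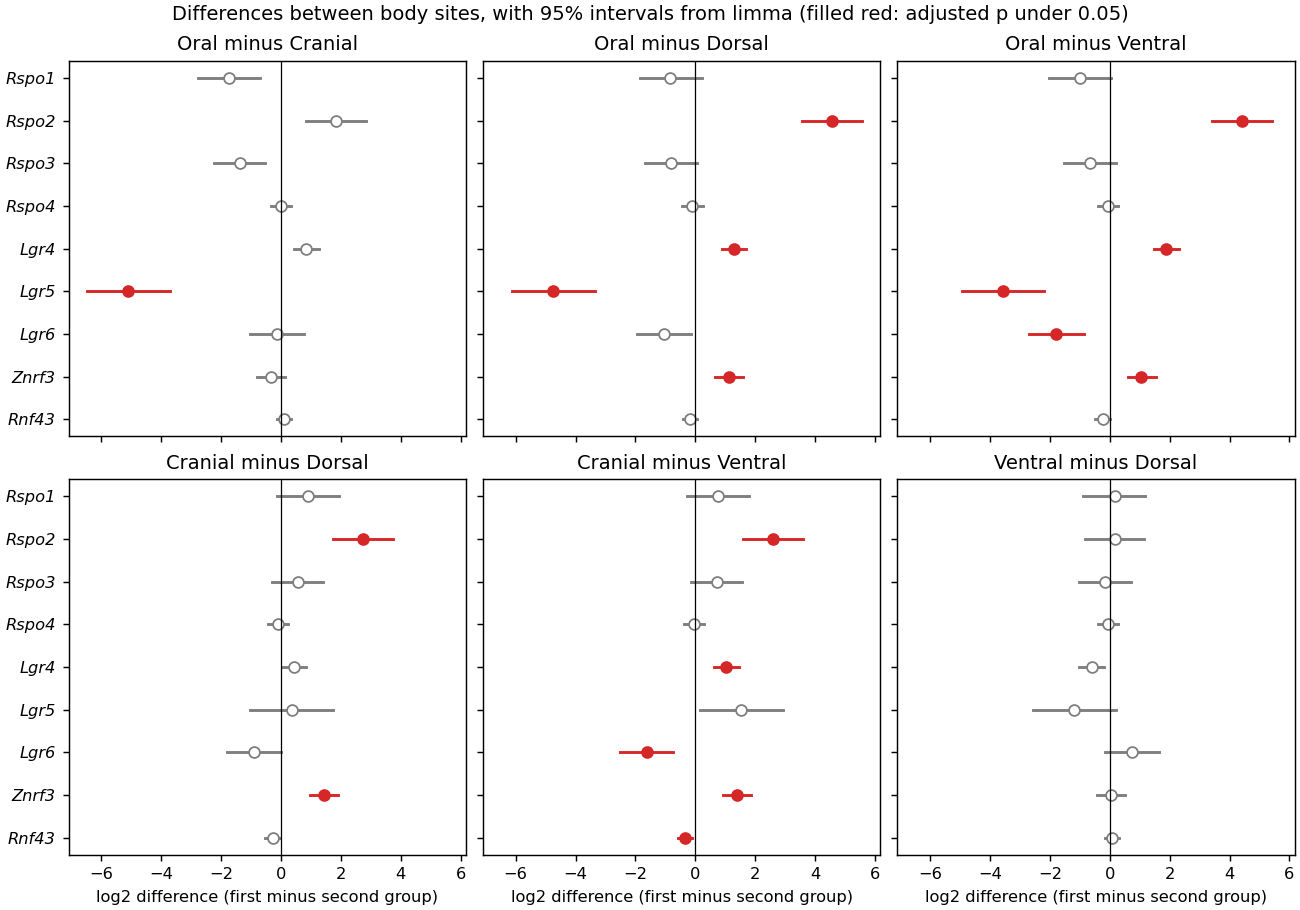
Differences in log2 expression between body sites for the 9 genes, 1 panel per comparison, as limma estimates with 95% intervals (3 arrays per group). Filled red points passed an adjusted p of 0.05 over 18193 genes. Rspo2, Lgr4 and Znrf3 lie to the right for Oral minus Ventral and Lgr5 and Lgr6 to the left.

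Znrf3, 1 of the 2 ligases that remove Wnt receptors, was higher in the head groups than on the trunk. Its levels were 7.08, 6.96 and 7.24 in Cranial, 6.58, 7.03 and 6.70 in Oral, 6.20, 5.37 and 5.38 in Dorsal and 5.83, 5.71 and 5.57 in Ventral. Every head array was above every trunk array. Cranial was higher than Dorsal by 1.44 ± 0.21 (2.72-fold, adjusted p = 0.00133 in limma) and than Ventral by 1.39 ± 0.21 (2.62-fold, adjusted p = 0.00160 in limma). Oral was higher than Dorsal by 1.12 ± 0.21 (2.17-fold, adjusted p = 0.00494 in limma) and than Ventral by 1.06 ± 0.21 (2.09-fold, adjusted p = 0.00728 in limma). In a fit of the 6 Oral and Dorsal arrays alone, the difference from Dorsal did not pass (adjusted p = 0.0642 in limma).

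Rnf43, the other ligase, was dim at all sites: 3.88, 3.97 and 3.88 in Cranial, 4.06, 3.95 and 4.03 in Oral, 4.06, 4.14 and 4.37 in Dorsal and 4.37, 4.14 and 4.27 in Ventral. Cranial and Oral means were near background. Cranial was called lower than Ventral by limma (-0.35 ± 0.11, adjusted p = 0.0498), and this call was lost without any 1 of the 6 arrays (adjusted p 0.0593 to 0.146). The highest Rnf43 levels were in ENF, at 5.02, 5.32 and 4.79.

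Counted by comparison, the members called in the head groups were these. Between Cranial and Dorsal, Rspo2 and Znrf3 were higher and no member was lower, 2 of 9, where 18.7% of all genes were called and 11.2% were called higher. Between Oral and Dorsal 4 of 9 were called against 16.8% of all genes: Rspo2, Lgr4 and Znrf3 were higher, as were 10.5% of all genes, and Lgr5 was lower, as were 6.30%. Between Oral and Ventral 5 of 9 were called against 14.6%: Rspo2, Lgr4 and Znrf3 were higher, as were 10.3% of all genes, and Lgr5 and Lgr6 were lower, as were 4.31%. Between Cranial and Ventral 5 of 9 were called against 17.9%: Rspo2, Lgr4 and Znrf3 were higher, as were 11.7% of all genes, and Lgr6 and Rnf43 were lower, as were 6.20%. The arrays did not overlap for 4 of the 9 genes between Cranial and Dorsal (35.5% of all genes), for 6 between Oral and Dorsal (30.1%), for 6 between Oral and Ventral (44.4%) and for 7 between Cranial and Ventral (54.9%). The median absolute difference of the 9 genes was 1.06 in Oral against Ventral and 1.05 in Oral against Dorsal, beside 0.23 over all genes in both. Between Ventral and Dorsal, limma called 0 of 9 and 0.0275% of all genes, and arrays did not overlap for 1 of 9 and 10.1% of all genes. This 1 member, Lgr4, was also the only one with an unadjusted p under 0.05 (-0.60 ± 0.19, adjusted p = 0.509 in limma). The 4 comparisons of head with trunk share their arrays and are not independent of each other. In each of them the mouse line and the traced lineage differ along with the body site.

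For 6 of the 9 genes a second probe set was read as a check, and these did not all give the same picture. The second Lgr6 probe set went the same way and was called in all 4 comparisons of head with trunk, from -0.39 to -0.54. The second Lgr5 probe set was dimmer (4.83 in Oral to 5.86 in Dorsal) and was called in Oral against Dorsal (-1.03 ± 0.27, adjusted p = 0.0250 in limma). It was lower in Oral but not called against Cranial (-0.64 ± 0.27, adjusted p = 0.576 in limma) and Ventral (-0.67 ± 0.27, adjusted p = 0.131 in limma). Nor did it pass the F test over the sites (adjusted p = 0.0795 in limma). In Cranial minus Dorsal it had the opposite sign (-0.39 ± 0.27), and neither probe set was called there. The second Rspo2 probe set was flat, with group means of 5.62 to 6.04. The second Lgr4 probe set was dim, with group means from 3.76 to 4.32. It had the opposite sign and was called in all 4 comparisons of head with trunk, from -0.53 to -0.56 (adjusted p 0.0103 to 0.0141 in limma). The second Znrf3 probe set, at 4.30 to 5.01, had the opposite sign between head and trunk and was not called, and the second Rspo3 probe set stayed at 3.89 to 4.19. With the mean of both probe sets, the differences became smaller: Lgr5 was at -2.87 for Oral minus Cranial, Rspo2 at 2.23 for Oral minus Dorsal, and Lgr4 at 0.24 for Cranial minus Ventral, where its call was lost (adjusted p = 0.0876 in limma).

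The comparison of EPF with ENF asks how cells of the En1 lineage differ from the other sorted cells of the back. None of the 9 genes was called by limma, where 0.308% of all genes were, and 5 had an unadjusted p under 0.05. The lowest adjusted p was that of Rnf43, whose levels of 4.14, 4.10 and 3.96 in EPF lay below all ENF arrays (-0.98 ± 0.18, adjusted p = 0.0888 in limma); it was called when all 18 arrays entered 1 fit (adjusted p = 0.000809). Lgr6 was at 6.47, 5.83 and 6.38 in EPF and 6.69, 8.23 and 7.07 in ENF, without overlap (-1.11 ± 0.39, adjusted p = 0.354 in limma). Znrf3 was at 6.77, 6.70 and 6.78 in EPF and 6.14, 6.47 and 6.31 in ENF, also without overlap (0.44 ± 0.15, adjusted p = 0.345 in limma). These 3 genes without overlap compare with 17.0% of all genes. Rspo1 (1.04 ± 0.37) and Lgr4 (-0.52 ± 0.19) were the other 2 with an unadjusted p under 0.05.

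Of 12 markers of keratinocytes and hair follicle epithelium, 2 were called between EPF and ENF, both lower in EPF. The mean of the 12 was 7.37, 9.31 and 9.45 in ENF, 7.56, 4.61 and 6.05 in EPF, and 4.55 to 4.84 in the 12 site arrays. ENF 2 and ENF 3 were above every EPF array, while ENF 1 was at about the level of EPF 1. Trp63, the master factor of stratified epithelium, fell by 4.13 from ENF to EPF and Lhx2, a factor of follicle stem cells, fell by 3.38 (adjusted p = 0.00591 and 0.0461 in limma). The other 10 were not called, among them Epcam, at 8.57 ± 0.89 in ENF and 9.11 ± 0.18 in EPF (SD, n = 3). Rnf43 was at 5.02, 5.32 and 4.79 in ENF 1 to 3, and at 4.14, 4.10 and 3.96 in EPF 1 to 3. Its mean in ENF (5.04 ± 0.26, SD, n = 3) was the highest of the 6 groups. Lgr6 was at 8.23 in ENF 2, 7.07 in ENF 3 and 6.69 in ENF 1, and at 6.47 in EPF 1. The part of epithelial RNA in the Lgr6 and Rnf43 values of ENF was not tested. At the body sites the same marker mean was 4.55 to 4.84, and the trunk arrays with the most Lgr6, Ventral 1 and Dorsal 3, had 4.72 and 4.71. Of the 12 markers, 4 were near background in Dorsal, 5 in Ventral, 7 in Cranial and 6 in Oral. The part of epithelial RNA in the Lgr6 values of the sites was not tested either. Single markers did differ by site: 4 of the 12 passed the F test over the sites, beside 21.1% of all genes. In Cranial against Dorsal, Perp was higher (2.41 ± 0.16) and Sfn (-0.66 ± 0.12) and Krt14 (-0.46 ± 0.13) were lower.

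**Figure D3:**
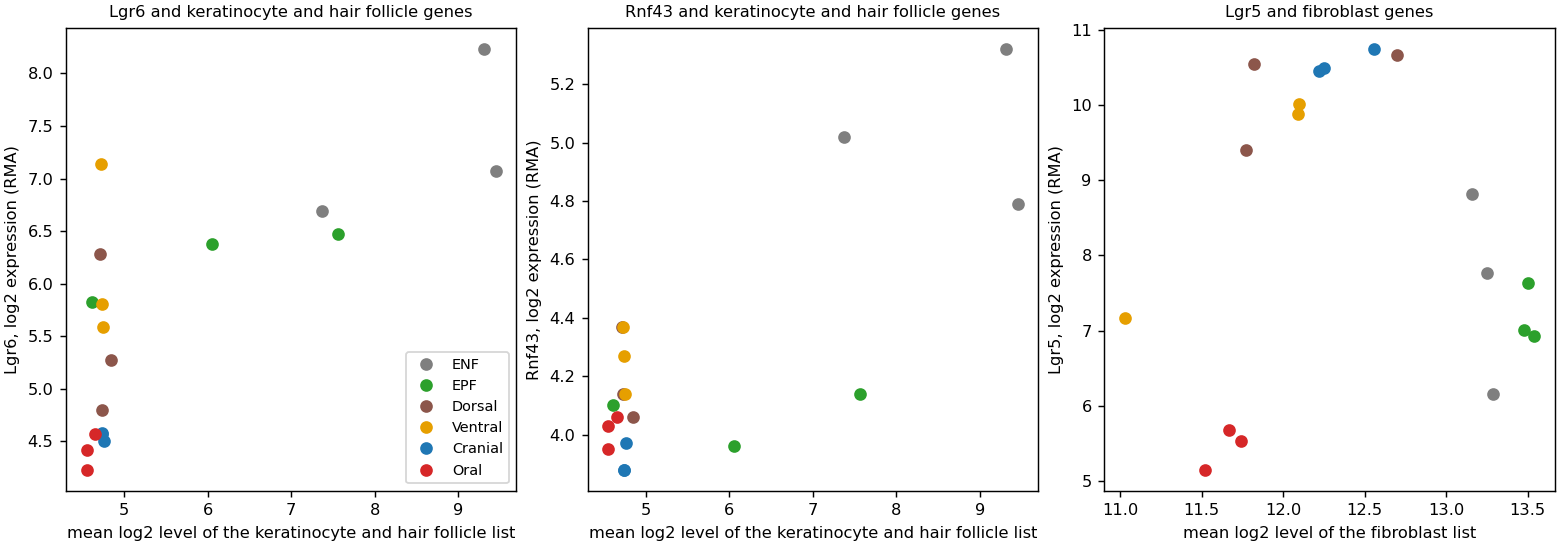
Lgr6 and Rnf43 against the mean of 12 keratinocyte and follicle markers, and Lgr5 against the mean of 8 fibroblast markers, 1 point per array, coloured by group, all in log2 expression. In the 12 site arrays the keratinocyte and follicle marker mean is 4.55 to 4.84 and Lgr6 is 4.23 to 7.14. The part of epithelial RNA in these values was not tested.

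EPF and Dorsal are both labelled as green cells of dorsal dermis in En1Cre; R26mTmG mice. Of the 9 genes, Rspo1, Rspo2 and Znrf3 were higher in EPF and Lgr5 was lower, 4 of 9, where 16.8% of all genes were called, 10.9% higher and 5.94% lower. The arrays of these 4 genes did not overlap, as for 36.6% of all genes. Rspo2 differed by 3.11 ± 0.62 (8.62-fold, adjusted p = 0.0178 in limma), Rspo1 by 2.40 ± 0.45 (5.27-fold, adjusted p = 0.0149 in limma) and Znrf3 by 1.10 ± 0.25 (2.14-fold, adjusted p = 0.0281 in limma). Lgr5 differed by -3.01 ± 0.38 (8.06-fold lower, adjusted p = 0.00322 in limma), and its call held without any 1 of the 6 arrays. The other 3 calls did not: 1 or 2 members were called without EPF 1, EPF 2, EPF 3 or Dorsal 2, and 4 without Dorsal 1. Without Dorsal 3, Znrf3 was lost (adjusted p = 0.0563 in limma) and Lgr6 was called. The age in the labels, the set of arrays and the group cannot be told apart here. Tek, which encodes the Tie2 used to exclude cells in the sort, was at 9.45 to 10.84 in the EPF and ENF arrays and at 3.61 to 4.40 in the site arrays.

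The rest of the Wnt pathway was read from 4 lists. In EPF against ENF limma called 0 of their 51 genes, of which 11 had an unadjusted p under 0.05. Over all genes, limma called 18.7% between Cranial and Dorsal, 17.9% between Cranial and Ventral, 16.8% between Oral and Dorsal and 14.6% between Oral and Ventral, and the counts of the lists stand beside these shares. Of 15 Wnt receptors and co-receptors, 6 passed between Cranial and Dorsal (5 higher, 1 lower), 6 between Cranial and Ventral (all higher), 4 between Oral and Dorsal (all higher) and 4 between Oral and Ventral (all higher). The list median was 0.17 for Cranial minus Dorsal and 0.73 for Cranial minus Ventral, beside -0.06 over all genes in both. It was -0.06 for Oral minus Dorsal and 0.34 for Oral minus Ventral, beside -0.02 over all genes in both. Ror1, a receptor of non-canonical Wnt signalling, was 4.48-fold to 4.52-fold higher in the head groups in all 4 comparisons (adjusted p from 3.45e-05 to 5.27e-05 in limma). Fzd7, a Frizzled receptor of the kind that the ligases remove, was higher in Cranial by 1.59 ± 0.34 against Dorsal and by 1.94 ± 0.34 against Ventral. Fzd9, another Frizzled, was the 1 lower receptor in Cranial against Dorsal (-0.55 ± 0.13). Between Oral and Cranial only Fzd1 passed (-1.01 ± 0.18, adjusted p = 0.0207 in limma). Against Dorsal, EPF had 2 receptors higher and 1 lower, 3 of 15, near the 16.8% of all genes called there.

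Of 16 intracellular components of the pathway, 4 were called between Cranial and Dorsal (3 higher, 1 lower), 5 between Cranial and Ventral (4 higher, 1 lower), 2 between Oral and Dorsal and 4 between Oral and Ventral (all higher). The counts against Dorsal, 4 and 2 of 16, are near the shares of all genes given above. Apc, the scaffold of the complex that destroys beta-catenin, was higher by 0.86 ± 0.12 in Cranial and by 0.67 ± 0.12 in Oral, against either trunk group. Axin1, the other scaffold, was lower in Cranial than in Dorsal (-0.70 ± 0.13) and Ventral (-0.51 ± 0.13). Of 6 proteins tied to R-spondins or LGR receptors, 2 were called between Cranial and Dorsal (1 each way), 1 between Oral and Dorsal (lower), and 3 against Ventral in Cranial and in Oral (2 higher, 1 lower in each). The lower gene was Iqgap1, an LGR effector, in all 4 comparisons (-0.85 to -0.95). Rab5a, a GTPase of early endosomes, was higher in Cranial than in Dorsal by 0.52 ± 0.15 and than in Ventral by 0.84 ± 0.15, and higher in Oral than in Ventral by 0.65 ± 0.15. Bmpr1a, a BMP receptor that R-spondins can bind, was higher against Ventral, by 1.15 ± 0.22 in Cranial and 0.78 ± 0.22 in Oral. Against Dorsal, EPF had 3 intracellular components higher and 2 lower, and Gpc3, a heparan sulfate proteoglycan, was higher by 2.33 ± 0.39.

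The 14 measured genes induced by Wnt signalling did not move in 1 direction. Axin2, its most used reporter gene, was at 6.84, 6.89 and 6.78 in Cranial, 5.95, 5.73 and 5.55 in Oral, 5.78, 5.67 and 5.68 in Dorsal and 5.95, 6.17 and 6.02 in Ventral. Cranial stood above the other 3 sites, and Oral overlapped with both trunk groups. Axin2 was higher in Cranial than in Dorsal by 1.13 ± 0.12 (adjusted p = 0.000182 in limma) and than in Ventral by 0.79 ± 0.12 (adjusted p = 0.00126 in limma), and lower in Oral than in Cranial (-1.10 ± 0.12, adjusted p = 0.000653 in limma). It was the single gene of this list called between Oral and Cranial. Between head and trunk, Myc, a growth regulator, was higher by 2.40 to 2.82, and Apcdd1, a membrane inhibitor of Wnt signalling, was lower, from -1.67 to -2.06. In all, 3 of the 14 were called between Cranial and Dorsal (2 higher, 1 lower), 5 between Cranial and Ventral (2 higher, 3 lower), 2 between Oral and Dorsal (1 each way) and 3 between Oral and Ventral (1 higher, 2 lower). Of these, 3 of 14 and 2 of 14 against Dorsal are near the shares of all genes called. Against Dorsal, EPF had 4 higher, among them Wif1, a secreted Wnt inhibitor (4.78 ± 0.94), and Myc (3.86 ± 0.37). Wif1 varied within groups, at 3.24, 8.06 and 8.10 in Ventral.

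**Figure D4:**
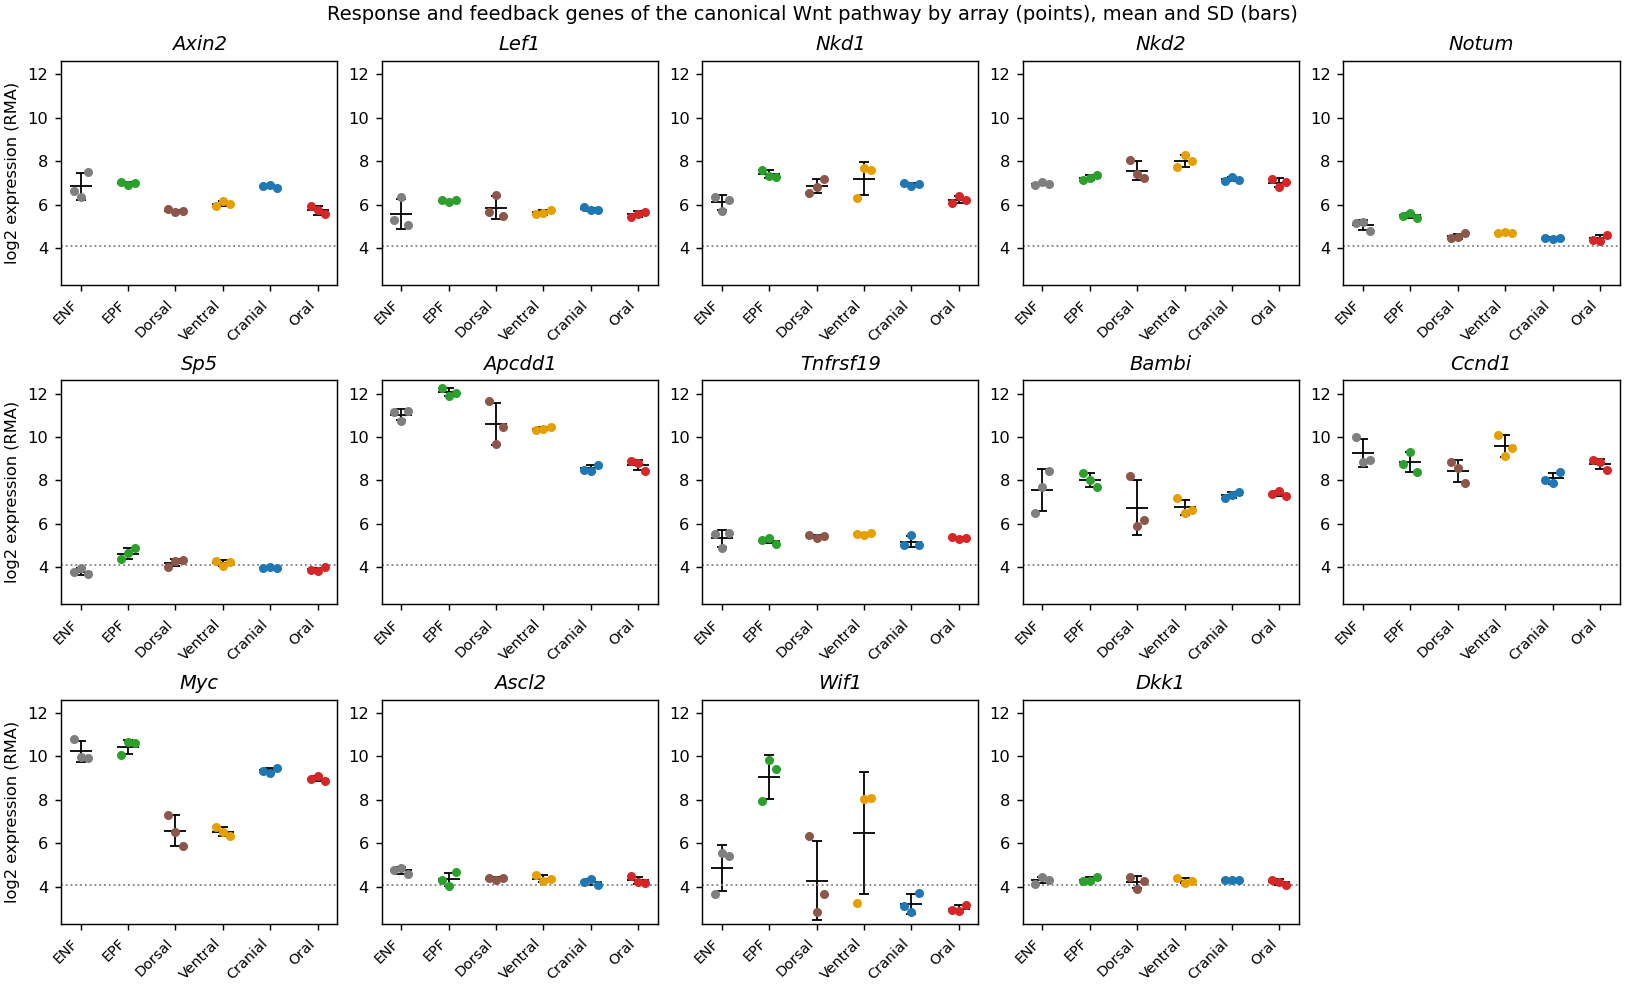
Log2 expression of 14 genes induced by Wnt signalling, in each of the 18 arrays. Axin2 lies at 6.78 to 6.89 in Cranial and at 5.55 to 5.95 in Oral, and Myc lies lower in Dorsal and Ventral than in the other groups.

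The genes whose levels followed a member most closely over the 12 site arrays were taken from 2393 genes whose site means span at least 1 log2 unit. These correlations describe 4 groups of 3 arrays, so the points share groups, and they carry no test. For Rspo2 they were Msx1 (r = 0.978), Barx1 (0.971) and Angptl1 (0.971), of which the first 2 are homeobox genes of craniofacial mesenchyme. For Lgr4 they were B3gnt5 (0.970), Otulinl (0.964) and Fam126a (0.958), and for Znrf3 Gabpa (0.986), Socs6 (0.984) and Gnpda2 (0.983). For Lgr5 they were Nova1 (0.969), Hoxd8 (0.962) and Mgst1 (0.957). For Lgr6 they were Hoxb9 (0.937), Hoxb6 (0.916) and Pitpnc1 (0.913), and for Rnf43 the gene 2810410L24Rik (0.926), Hoxb9 (0.919) and Deptor (0.906). Hox genes, which mark position along the body axis, were among the neighbours of Lgr5, Lgr6 and Rnf43. The share of Hox genes among the 2393 genes was not counted. Rnf43 was dim and its site means spanned only 0.35, and Hoxb6 was near background in Cranial (3.56) and Oral (3.76). Hoxd8 itself had its highest site mean in Cranial (9.19) and its lowest in Oral (5.34). Over all 18 arrays r stayed at 0.858 for Msx1 and 0.924 for B3gnt5 but was -0.099 for Nova1 and 0.366 for Hoxb9 with Lgr6. For the other Hox pairs r was 0.736 for Hoxd8 with Lgr5, 0.853 for Hoxb6 with Lgr6 and 0.182 for Hoxb9 with Rnf43.

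Other cell types that the sort could have left were also read. Of 5 adipocyte markers, limma called 1 lower between Cranial and Dorsal, 3 between Oral and Dorsal, and 2 against Ventral in Cranial and in Oral, each of them Fabp4, Lpl or Pparg, with none higher. Their mean was 6.92 to 7.09 in Cranial and 6.48 to 6.62 in Oral, and 7.26 to 9.14 in the trunk arrays. Mural and smooth muscle markers were at 9.69 to 9.81 in EPF, 7.70 to 7.83 in ENF and 8.28 to 8.84 at the sites, and skeletal muscle markers were at 6.46 to 7.62 in ENF and 4.78 to 5.25 elsewhere. The mean of 6 endothelial markers was 5.43 to 6.54 in the EPF and ENF arrays and 4.34 to 4.61 in the site arrays. Among them, Tek was higher in EPF and ENF, as given above. Kdr had means of 8.87 in ENF, 8.38 in EPF and 6.55 to 7.28 at the sites. Vwf had means of 5.03 in ENF, 4.54 in EPF and 4.36 to 4.47 at the sites. It was high only in ENF 3 and EPF 3, with 4.21, 4.46 and 6.43 in ENF and 3.55, 4.11 and 5.96 in EPF. Pecam1, Cdh5 and Emcn did not follow, with means of 3.47 to 4.17 in EPF and ENF and 3.48 to 4.23 at the sites. The mean of 11 dermal papilla and sheath markers, of cells known to make R-spondins, was 6.33 to 7.16 in EPF, 5.19 to 5.56 in ENF and 5.80 to 6.57 at the sites. Between EPF and ENF 0 of the 11 were called. Against Dorsal, EPF had 1 called higher (Wif1, 4.78 ± 0.94) and 1 called lower (Vcan, -1.46 ± 0.32). Over the 18 arrays the mean level was 5.06 to 6.21 for leukocyte, 4.91 to 6.40 for melanocyte, 5.31 to 6.17 for Schwann and 5.03 to 5.67 for bone, cartilage and tooth markers. Single genes of these lists differed more: Acan, a cartilage proteoglycan, was 3.24-fold to 3.69-fold higher in the head groups in all 4 comparisons with the trunk. Col2a1, of the same list, was called lower than in Dorsal in Cranial (-1.13 ± 0.28) and in Oral (-0.95 ± 0.28). Sp7, also of that list, was called lower in Cranial than in Ventral (-0.51 ± 0.14). Against Dorsal, EPF had more Mlana (13.9-fold) and Mitf (5.91-fold), 2 of 6 melanocyte markers, and more Csf1r (6.16-fold), 1 of 7 leukocyte markers. The other 4 and 6 markers of these lists were not called, where 16.8% of all genes were called. The list medians for EPF minus Dorsal were 0.27 for melanocyte and -0.04 for leukocyte markers, beside 0.01 over all genes. The part of these cells in the values of the 9 genes was not tested.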

How the data were processed

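The 18 arrays were read from the deposited series table. Its values are log2 expression, which the authors obtained by RMA with quantile normalization, as the series design text and the processing notes of the submitters say (per the labels). Software versions, and whether 1 run covered all arrays, are not stated there. Of 45101 probe sets, 64 were controls, 34945 had 1 gene symbol, 932 several and 9160 none; 34741 matched the GRCm38.p6 gene table by Entrez identifier. Each of 18193 genes was read from its probe set with the highest mean, and none was removed as dim.

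Differences were tested on these log2 values with limma 3.58.1 (lmFit, eBayes) under R 4.3.3; p-values were adjusted by Benjamini-Hochberg across the 18193 genes and called at 0.05. EPF and ENF were fitted on 6 arrays, the 4 sites on 12, and EPF and Dorsal on 6. Tables, motif searches and plots used Python 3.11.15, pandas 2.3.3, numpy 2.4.6 and matplotlib 3.10.9. The fit was tested on simulated data.

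All 9 members are named. Of each pathway list, up to 2 called genes with the largest difference per direction and comparison could be named; for each member called between sites, the 3 genes with the highest correlation are named. Marker genes are named beside a member's result or as examples from their list. The members and lists were chosen with earlier results of these data known. Alternatives were the fit's arrays, array weights, a robust trend, quantile normalization, dim genes left out, other probe set rules, each array left out and a replicate block. Replicate numbers did not pair the arrays: no comparison had all same-number correlations over 0.1.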

Additional observations from a re-analysis of the deposited data

How the results depend on the processing

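Of 1251 values of a member in a comparison under an alternative, 1149 kept their direction and their side of the threshold, 33 lost the call, 41 gained it and 28 changed sign; of these 28, 0 were called, as reported or under the alternative. The count of members called between Oral and Cranial, 1 in the fit of the 4 sites, was 2 with all 18 arrays in 1 fit, 2 with quantile normalization, 2 with the mean of all probe sets, 5 with array weights and 5 with only the 6 arrays; in a fit with no Dorsal arrays, chosen after seeing the data, it was 4. With array weights the counts were 2 for Ventral against Dorsal, 6 for Cranial against Dorsal, 8 for Oral against Ventral and 8 in the F test over the sites. For EPF against ENF it was 1 with all 18 arrays in 1 fit. Without single arrays the counts ran from 2 to 4 for Cranial against Dorsal (4 without Dorsal 1), 4 to 7 for Oral against Ventral (7 without Ventral 1), 3 to 4 for Cranial against Ventral, 1 to 4 for EPF against Dorsal and 4 to 7 in the F test (7 without Ventral 1); they stayed at 4 for Oral against Dorsal, 1 for Oral against Cranial, and 0 for EPF against ENF and for Ventral against Dorsal. Of the differences that changed sign, Rspo3 in Ventral minus Dorsal was 0.65 with array weights and 0.06 with the mean of all probe sets, which also gave -0.05 for Lgr4 and -0.01 for Lgr5 in Cranial minus Dorsal; Lgr5 there was -0.01 with array weights. With quantile normalization Rspo4 was 0.02 in Oral minus Ventral and 0.06 in Cranial minus Ventral. Without single arrays, EPF minus ENF ran from -0.76 to 0.76 for Rspo2 and from -1.10 to 0.23 for Lgr5. Ventral minus Dorsal ran from -0.25 to 0.73 for Rspo1, -0.22 to 0.84 for Rspo2, -0.43 to 0.40 for Rspo3, -0.19 to 0.05 for Rspo4 and -0.08 to 0.33 for Znrf3. Lgr5 in Cranial minus Dorsal ran from -0.04 to 0.59, and Rspo4 from -0.16 to 0.09 in Oral minus Ventral and from -0.15 to 0.09 in Cranial minus Ventral. The replicate numbers are only names here; with a replicate block, Rnf43 in Cranial against Ventral was lost (adjusted p = 0.0796 in limma), which left 4 members, and the other counts were equal to those without the block. The cause of these changes was not tested. Values near 4.10 are limited by background.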
